A study of Mus musculus with 12 samples.

Results

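The 10 genes described here belong to fibroblast growth factor (FGF) signalling: the ligand gene Fgf15, the receptor genes Fgfr1, Fgfr2, Fgfr3 and Fgfr4, and 5 genes that the pathway is known to induce, Spry1, Spry2, Spry4, Dusp6 and Etv5. They were taken by gene symbol from the 23352 gene rows of the deposited expression table, and each symbol matched 1 row. RNA of microdissected mouse neocortex at embryonic day 16 had been sequenced in 12 libraries, which ask what the neocortical transcriptome looks like without the transcription factor NFIA or NFIB. The first group was labelled homozygous Nfia knockout (strain Nfia{tm1Rmg}, 4 libraries) and was set against 2 wild-type libraries of that line. The other was labelled homozygous Nfib knockout (strain Nfib{tm1Rmg}, 4 libraries) and was set against 2 wild-type libraries of the Nfib line. All 4 groups were on a C57BL/6 background, and nothing in the labels ties a library to its own embryo or litter, so the deposited p-values may measure technical spread.

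FGF ligands bind receptor tyrosine kinases together with heparan sulfate, and the activated receptors signal through the RAS-ERK kinase cascade. Sprouty proteins and the phosphatase DUSP6 are induced by this cascade and dampen it, and ETV5 is an ETS transcription factor that carries its output into gene expression. In the developing cortex the receptors are known from radial glia, the neural stem cells of the ventricular zone, and FGF signalling acts there on progenitor division and on the patterning of areas. FGF15, the mouse counterpart of human FGF19, is known in the mouse forebrain as a ligand that promotes neuronal differentiation.

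Each gene has 1 value per group, the authors' average in FPKM, which relates fragments to transcript length and library size. The averages come without a spread between libraries, and depth is unknown. The authors' deposited table also gives, within each line, the knockout over wild-type ratio as a log2 fold, its p-value and its q-value, and a gene is called here when its q was under 0.05. The error printed with a fold was worked out from that p, by dividing the absolute fold by the normal quantile matching it, and was raised where needed to the median error of genes at similar FPKM. The smallest p in that table is 5e-05, and where a gene has this p the error is an upper limit. Nfib transcript averaged 9.12 FPKM in Nfib knockouts and 134 FPKM in their wild types, while Nfia averaged 28.2 FPKM in the group labelled Nfia knockout and 33.7 FPKM in its wild types (q = 0.477 in the authors' deposited table), so that group is named by its label throughout. Defining genes of cortical projection neurons were at high levels in all groups, with Neurod6 between 424 and 550 FPKM. Sex-linked genes were unevenly represented: Xist was at 77.0 FPKM in the group labelled Nfia knockout against 161 FPKM in its wild types. It was at 86.0 FPKM in Nfib knockouts against 0.207 FPKM in their wild types. The Y-linked gene Ddx3y was at 7.29 FPKM in the group labelled Nfia knockout against 0.033 FPKM in its wild types. In Nfib knockouts Ddx3y was at 5.89 FPKM, against 11.5 FPKM in their wild types. The Nfia-line wild types thus had almost no Ddx3y, and the Nfib-line wild types almost no Xist. The part of sex in the folds was not tested.

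Fgf15 rose in the group labelled Nfia knockout, Fgfr1, Fgfr4 and Dusp6 fell there, and the other 6 genes did not pass the threshold. These were 4 of 10 genes, 1 higher and 3 lower, where 3.79% of all 13736 tested genes were called, 2.69% higher and 1.1% lower, in the authors' deposited table. In Nfib knockouts none of the 10 genes was called by the authors' Cuffdiff q-values, where 5.39% of 13729 tested genes were, 2.13% higher and 3.26% lower. At an unadjusted p under 0.05 the counts were 6 of 10 genes in the group labelled Nfia knockout and 1 of 10 in Nfib knockouts, against 10.1% and 13.4% of all tested genes. The ribosomal RNA row Rn45s moved with the Nfia-line calls, at 129.9 FPKM in the group labelled Nfia knockout and 346 FPKM in its wild types (log2 fold -1.42, q = 0.00286 by the authors' deposited table), against 561 FPKM in Nfib knockouts and 517 FPKM in theirs (q = 0.994), and its part in these calls was not tested. All 10 genes were tested in both comparisons. In the Nfia line Fgf15 and Fgfr4 reached 1 FPKM in 1 group each, the group where each was high, and in the Nfib line neither reached it. The plot of group averages shows the 4 levels of each gene.

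**Figure D1:**
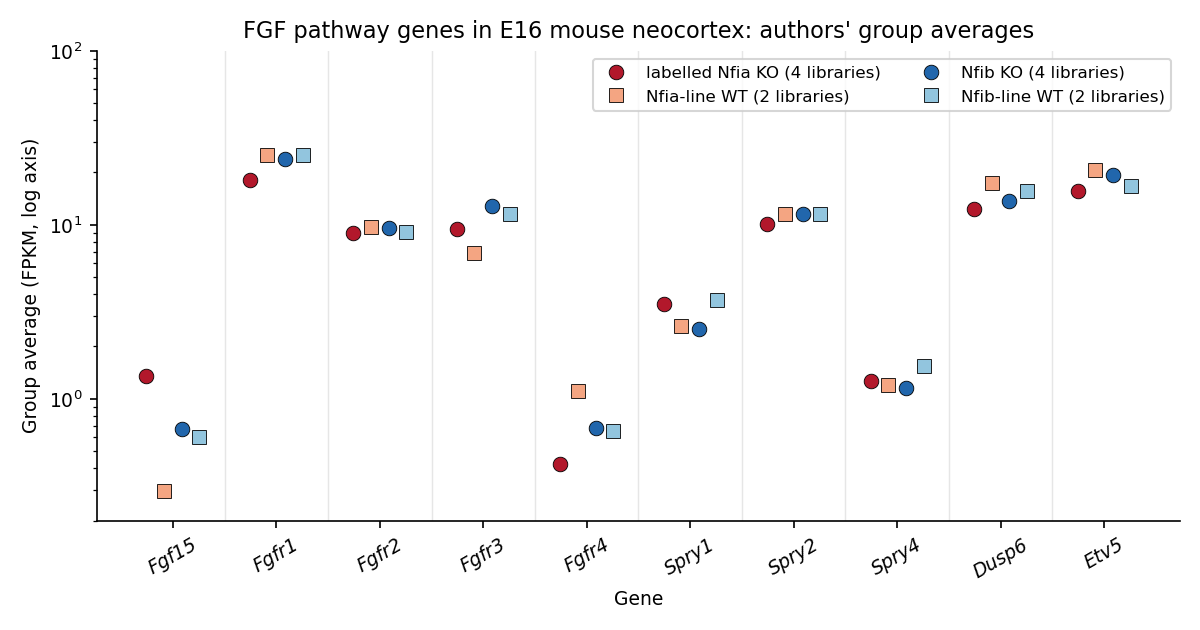
Group averages in FPKM (log axis) of the 10 genes, with circles for the knockout groups (4 libraries each) and squares for the wild types (2 libraries each). Each point is 1 average deposited by the authors, without an error. Fgf15 runs between 0.296 and 1.35 FPKM, and the wild types of the lines differ for Fgf15, Fgfr3 and Fgfr4.

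Fgf15, the ligand gene, averaged 1.35 FPKM in the group labelled Nfia knockout and 0.296 FPKM in its wild types, the highest and the lowest of the 4 groups. Nfib knockouts stood at 0.671 FPKM and their wild types at 0.603 FPKM, between these. The log2 fold in the Nfia line was 2.18 (error at most 0.54, q = 0.00286) in the authors' deposited table, about 4.52-fold. Set against the Nfib-line wild types, the same knockout average gave a log2 fold of 1.05, computed from FPKM + 0.1. In bulk tissue, fewer cells of a type and less RNA per cell cannot be told apart. Genes of other forebrain regions moved in the same comparison. Of 14 tested ventral forebrain markers 8 were higher and none lower in the authors' deposited table, and their summed level was 161 FPKM in the group labelled Nfia knockout and 106 FPKM in its wild types. Of 11 tested markers of diencephalon and septum 5 were higher and none lower in the authors' deposited table. Their list summed to 29.7 FPKM in the group labelled Nfia knockout and 17.6 FPKM in its wild types. The hypothalamic genes Six6 and Rax are listed at 0 in these wild types, and at 0.00093 and 0.0023 FPKM in the group labelled Nfia knockout. In Nfib knockouts 3 of 10 tested markers of this list were lower and none higher in the authors' deposited table. The list summed to 17.5 FPKM there and 27.9 FPKM in their wild types, with Rax listed at 0 in both and Six6 in the wild types. In the Nfib line the ventral sums were 92.5 FPKM in knockouts and 151 FPKM in wild types, with 9 of 14 tested markers lower in the authors' deposited table, and Fgf15 there had a log2 fold of 0.19 (q = 0.998). The part of these regions in the Fgf15 values was not tested.

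Fgfr1, the receptor gene with the highest FPKM of the 4 in every group, averaged 18.1 FPKM in the group labelled Nfia knockout and 25.2 FPKM in its wild types. Nfib knockouts and their wild types stood at 23.9 and 25.1 FPKM, so 3 of the 4 averages lay close together and the group labelled Nfia knockout below them. The log2 fold in the Nfia line was -0.49 (error 0.14, q = 0.0121) in the authors' deposited table, and -0.47 with the Nfib-line wild types in place of its own. Fgfr4, which in the liver is the main receptor of FGF15, was the rarest receptor, at 0.423 FPKM in the group labelled Nfia knockout and 1.11 FPKM in its wild types. Its log2 fold was -1.40 (error at most 0.35, q = 0.00286) in the authors' deposited table. The Nfib line lay between, at 0.677 FPKM in knockouts and 0.651 FPKM in wild types, and the fold against these wild types was -0.52. The obligate partner of FGFR4 in liver, Klb, was below 0.1 FPKM in all 4 groups, 0.0619 and 0.0709 FPKM in the knockout-labelled and wild-type groups of the Nfia line.

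Fgfr2 averaged 9.01 FPKM in the group labelled Nfia knockout and 9.70 FPKM in its wild types, and 9.53 FPKM in Nfib knockouts and 9.15 FPKM in theirs. It was the member with the narrowest range, the highest average being 1.08 times the lowest. Fgfr3, a receptor gene of radial glia and astrocyte precursors, averaged 9.51 FPKM in the group labelled Nfia knockout and 6.87 FPKM in its wild types, which missed the threshold (log2 fold 0.46, error 0.17, q = 0.0758 by the authors' deposited table). Both Nfib-line groups were higher than either of these, at 12.8 FPKM in knockouts and 11.5 FPKM in wild types (log2 fold 0.18, q = 0.836 by the authors' deposited table). Set beside the Nfib-line wild types, the Nfia-labelled knockout average was lower, with a log2 fold of -0.27. Of 11 tested astrocyte lineage markers 6 were lower and none higher in Nfib knockouts, where 3.26% of all tested genes were lower. In the Nfia line 1 of 9 tested was higher and 1 lower, all by the authors' q-values. The part of these cells in the Fgfr3 values was not tested.

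FPKM is relative to transcript length, so levels of the receptors can be added. The 4 receptors summed to 37.0 FPKM in the group labelled Nfia knockout and 42.9 FPKM in its wild types, and to 47.0 FPKM in Nfib knockouts and 46.4 FPKM in theirs. Fgfr1 made up 48.9% of the sum in the group labelled Nfia knockout and 58.8% in its wild types, and 51.0% in Nfib knockouts and 54.1% in theirs. Fgfr3 made up 25.7% in the group labelled Nfia knockout and 16.03% in its wild types, against 27.3% in Nfib knockouts and 24.7% in theirs. The Nfia-line wild types thus had the lowest Fgfr3 share and the highest Fgfr1 share of the 4 groups. These shares carry no error, since each rests on group averages. Radial glia markers, which mark the main cells with these receptors, summed to 1087 FPKM in the group labelled Nfia knockout and 1018 FPKM in its wild types. In Nfib knockouts they summed to 1267 FPKM, and in their wild types to 1288 FPKM. Fabp7 was the largest part of these sums, at 525 FPKM in the group labelled Nfia knockout and 427 FPKM in its wild types. It stood at 580 FPKM in Nfib knockouts and 592 FPKM in theirs. The median log2 fold of these markers was -0.055 for the Nfia line and 0.042 for the Nfib line. Of 14 tested radial glia markers 1, Tnc, was lower and none higher in the Nfia line, where 3.79% of all tested genes were called. In the Nfib line 1, Pax6, was higher and 1, Tnc, lower, where 5.39% of all tested genes were called in the authors' deposited table. Of 8 tested intermediate progenitor markers 3, Eomes, Insm1 and Mfap4, were lower and none higher in the Nfia line by the q-values of the authors' deposited table, with sums of 195 FPKM in the group labelled Nfia knockout and 239.6 FPKM in its wild types. In the Nfib line 3 different markers of the 8, Neurog1, Neurog2 and Elavl4, were called higher and none lower. The 8 summed to 280.5 FPKM in Nfib knockouts and 216 FPKM in their wild types. Elavl4, which neurons also express, was the highest of the 8 there, at 65.0 FPKM in Nfib knockouts and 41.8 FPKM in their wild types. Eomes, Insm1 and Mfap4 were not called in that line, where their deposited log2 folds were 0.25, 0.086 and -0.41. The part of these progenitors in the Fgfr1, Dusp6 and Etv5 values was not tested.

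**Figure D2:**
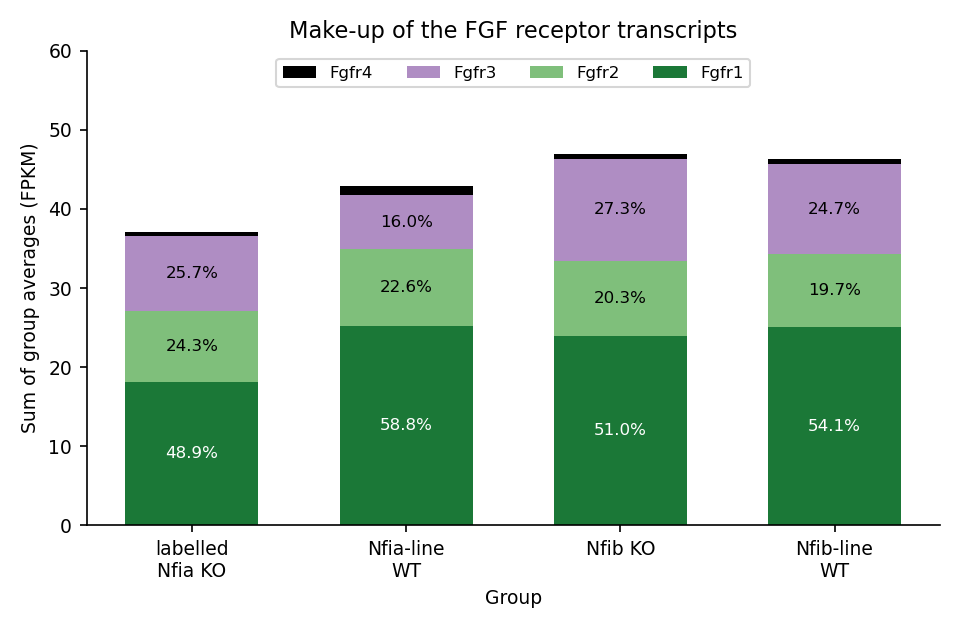
Stacked group averages in FPKM of Fgfr1, Fgfr2, Fgfr3 and Fgfr4 in the 4 groups, with each receptor's percentage of the sum (Fgfr4, 1.14% to 2.59%, is drawn without its number). The sum is lowest in the group labelled Nfia knockout (37.0 FPKM), and the Fgfr3 share is lowest in the Nfia-line wild types (16.03%).

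Of the genes lower in the group labelled Nfia knockout, Fgfr4 and Dusp6 have a promoter in the RefSeq table used (build GRCm38.p6, another build than the mm9 of the values), and the 250 bases before each start site are printed to show which known motifs they hold. Both lie on the + strand, Fgfr4 at chr13:55152568-55152817 and Dusp6 at chr10:99262981-99263230. Capitals mark the searched letters on either strand: TTGGCA, a strict form of the NFI half-site, the full NFI palindrome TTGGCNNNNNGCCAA, and CCGGAA, a strict form of the ETS site. The shorter forms TTGGC and GGAA were not counted.
Fgfr4: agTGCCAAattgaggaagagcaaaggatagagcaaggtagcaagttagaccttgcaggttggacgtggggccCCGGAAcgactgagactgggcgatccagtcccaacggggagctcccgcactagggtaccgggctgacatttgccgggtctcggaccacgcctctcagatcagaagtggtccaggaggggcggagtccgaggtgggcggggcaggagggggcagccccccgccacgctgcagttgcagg
Dusp6: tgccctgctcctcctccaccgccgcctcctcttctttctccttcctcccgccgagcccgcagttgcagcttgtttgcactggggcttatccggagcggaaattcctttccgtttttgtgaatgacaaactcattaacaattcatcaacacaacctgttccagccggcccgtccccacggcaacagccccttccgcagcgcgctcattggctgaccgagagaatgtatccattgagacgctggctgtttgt
The Fgfr4 window holds 1 TTGGCA, read on the opposite strand and starting 248 bases before the start site. It also holds 1 CCGGAA, starting 178 bases before that site. The Dusp6 window holds none of the searched letters, but it does hold the shorter TTGGC and GGAA. Over 9 start sites of the 7 genes in the table, the Fgfr4 window was the only one with TTGGCA or CCGGAA, and none held the palindrome. Of all 32851 windows of this length 12.3% hold TTGGCA, 12% CCGGAA and 0.0365% the palindrome. A match to letters is not a bound site. TTGGCA lies within the palindrome only where the base after its TTGGC, read on either strand, is A.

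Dusp6 encodes the cytoplasmic phosphatase that removes the activating phosphates of ERK. It averaged 12.3 FPKM in the group labelled Nfia knockout and 17.4 FPKM in its wild types, and 13.7 FPKM in Nfib knockouts and 15.6 FPKM in theirs, so each knockout average lay below both wild-type averages. The authors' deposited table gives log2 folds of -0.51 for the Nfia line (error 0.15, q = 0.0248) and -0.17 for the Nfib line (error 0.16, q = 0.862). Set against the wild types of the other line, they came to -0.35 and -0.34. The call in the Nfia line, like that of Fgfr1, was lost at q 0.01. Fgfr4 and Dusp6 overlap no other gene in GENCODE M21, while Fgf15 overlaps 2 antisense transcripts and Fgfr1 overlaps 1, which unstranded reads could not tell apart from them.

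Etv5 averaged 15.6 FPKM in the group labelled Nfia knockout and 20.7 FPKM in its wild types, just outside the threshold (log2 fold -0.42, error 0.15, q = 0.0598 by the authors' deposited table). Nfib knockouts stood at 19.3 FPKM and their wild types at 16.7 FPKM, which gave 0.23 on the log2 scale (error 0.16, q = 0.619 in the authors' deposited table). The folds had opposite signs, and came to -0.097 and -0.099 when each knockout group was set against the other line's wild types.

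The Sprouty genes encode membrane-associated inhibitors of the RAS-ERK cascade, and none of the 3 was called in either line. Spry2 was the most abundant, at 10.1 FPKM in the group labelled Nfia knockout and 11.5 FPKM in its wild types, and at 11.5 FPKM in both Nfib-line groups. The authors' deposited table gives it log2 folds of -0.21 for the Nfia line (q = 0.861) and 0.017 for the Nfib line (q = 0.998). Spry1 averaged 3.50 FPKM in the group labelled Nfia knockout and 2.62 FPKM in its wild types, but 2.52 FPKM in Nfib knockouts and 3.71 FPKM in theirs. Its log2 folds of 0.40 (error 0.21, q = 0.532) and -0.53 (error 0.24, q = 0.256) in the authors' deposited table had opposite signs, but came to -0.080 and -0.054 when each knockout group was set against the other line's wild types. Spry4 had the same order of groups, at 1.26 FPKM in the group labelled Nfia knockout and 1.198 FPKM in its wild types, and at 1.16 FPKM in Nfib knockouts and 1.55 FPKM in theirs. The authors' deposited table gives it log2 folds of 0.063 (q = 0.999) in the Nfia line and -0.39 (q = 0.576) in the Nfib line. The 3 Sprouty genes summed to 14.8 FPKM in the group labelled Nfia knockout and 15.3 FPKM in its wild types, and to 15.2 FPKM in Nfib knockouts and 16.8 FPKM in theirs.

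**Figure D3:**
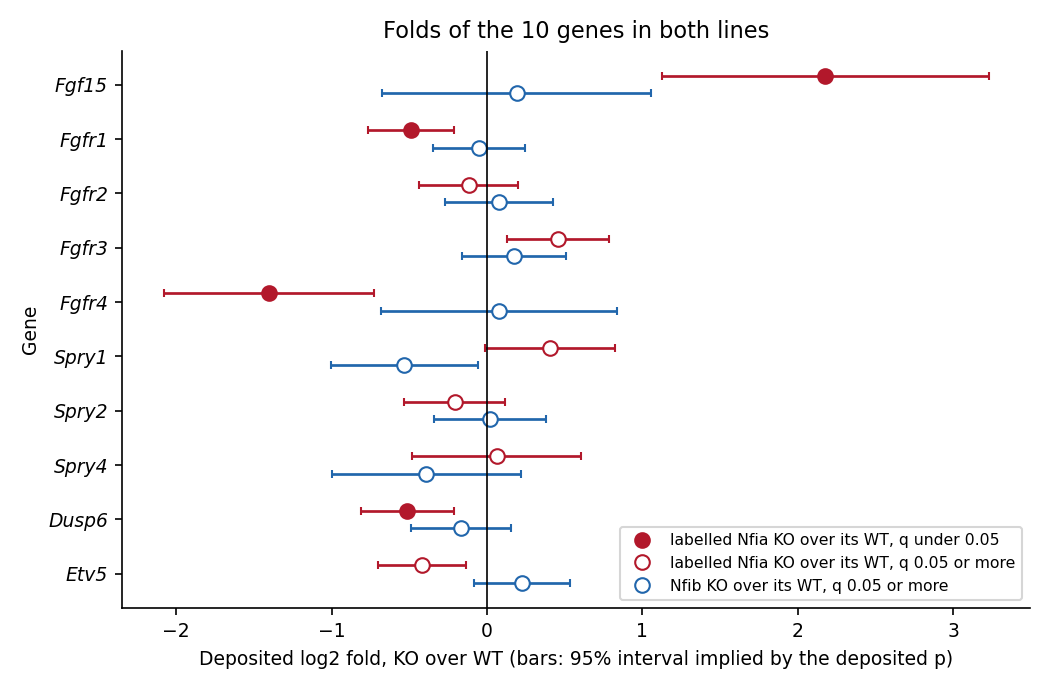
Log2 fold of knockout over wild type in the authors' deposited table for the 10 genes, in red for the group labelled Nfia knockout and in blue for Nfib knockouts. Filled points have a q under 0.05. Bars are 95% intervals from errors worked out from the deposited p and raised where needed to the median error of genes at similar FPKM. The filled points are Fgf15 at 2.18, Fgfr1 at -0.49, Fgfr4 at -1.40 and Dusp6 at -0.51, all in the Nfia line.

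In Nfib knockouts the folds of the 10 genes lay between -0.53 for Spry1 and 0.23 for Etv5 in the authors' deposited table, with a median of 0.047 beside -0.0049 over all tested genes with a fold. In the group labelled Nfia knockout they lay between -1.40 and 2.18, with a median of -0.16 beside -0.0033 over all. The misses do not show that these genes were alike in Nfib knockouts and wild types. The 95% interval of the Fgf15 fold ran from -0.68 to 1.06, that of Fgfr4 from -0.68 to 0.83 and that of Fgfr1 from -0.35 to 0.24. Spry1 had an unadjusted p of 0.0273 in the Nfib comparison in the authors' deposited table. Of 12 tested markers of cortical hem and choroid plexus 4 were higher and 2 lower in Nfib knockouts in the authors' deposited table, with sums of 108 FPKM in the knockouts and 17.6 FPKM in their wild types, where Lmx1b and Folr1 are listed at 0. Most of the sum was Ttr, a choroid plexus gene, at 94.8 FPKM in Nfib knockouts and 0.346 FPKM in their wild types. Of 10 tested markers of meninges and fibroblasts 7 were lower and none higher in Nfib knockouts, by the authors' q-values. Of 9 tested oligodendrocyte lineage markers 3 were lower and 1 higher there, where 3.26% of all tested genes were lower. The part of these tissues and cells in the values above was not tested.

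Whether the folds differed between the lines was tested from both errors together, with Benjamini-Hochberg adjustment over 13554 genes. None of the 10 genes passed an adjusted p of 0.05, where 3.78% of genes did, and 5 of 10 had an unadjusted p under 0.05, where 12.4% of genes did. Etv5 came nearest to passing, with a difference in log2 fold, Nfia line minus Nfib line, of -0.65 (unadjusted 95% interval -1.06 to -0.23). Spry1 followed with a difference of 0.94 (0.31 to 1.57). Fgf15 differed by 1.98 (0.62 to 3.35) and Fgfr4 by -1.48 (-2.50 to -0.46), both with an error that is an upper limit in the Nfia line. For Fgfr1 the difference was -0.44 (-0.84 to -0.034), and for Dusp6 -0.35 (-0.78 to 0.093). Without raising the errors to those of genes at similar FPKM, Fgfr4 and Etv5 passed the adjusted threshold and the other 8 genes did not, so the outcome for these 2 rests on that choice. The calls of Fgf15, Fgfr1 and Dusp6 in the Nfia line and not in the Nfib line are not shown to differ between the lines. This test used errors derived from p-values and is approximate.

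The wild types of the lines differed for several of these genes before any knockout was considered. Computed from FPKM + 0.1, the Nfia-line wild types lay at a log2 difference of -0.83 from the Nfib-line wild types for Fgf15, -0.73 for Fgfr3 and 0.69 for Fgfr4. These 3 of 10 genes were at least 1.5-fold apart, where 4.07% of 12567 genes at 1 FPKM or more in at least 1 group were, and 2 of the 3, Fgf15 and Fgfr4, were at most 1.35 FPKM in any group and reached 1 FPKM in 1 group each. With a pseudocount of 1 FPKM only Fgfr3 was that far apart. Fgfr1 (0.0059) and Spry2 (-0.0011) had nearly equal averages in both wild types. The comparison with the other line's wild types has no test, since the averages carry no spread. The wild types of the lines also differ in Xist and Ddx3y, as given above. All 4 genes called in the Nfia line kept their sign against the Nfib-line wild types. This is no check of the calls, since each knockout average was the highest or lowest of the 4 groups and the sign could not change. The uncalled Fgfr3, Spry1 and Spry4 changed theirs. Only Fgf15 of the 10 was at least 1.5-fold away from the Nfib-line wild types, where 3.82% of the same 12567 genes were. In Nfib knockouts Fgfr2, Fgfr4 and Etv5 changed sign against the Nfia-line wild types. Fgf15 (0.96), Fgfr3 (0.89) and Fgfr4 (-0.64) were then at least 1.5-fold away, where 3.33% of those genes were. Fgf15 was kept among those genes only by the group labelled Nfia knockout, and Fgfr4 only by the Nfia-line wild types. For these 2 genes the shares are therefore no fair measure.

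**Figure D4:**
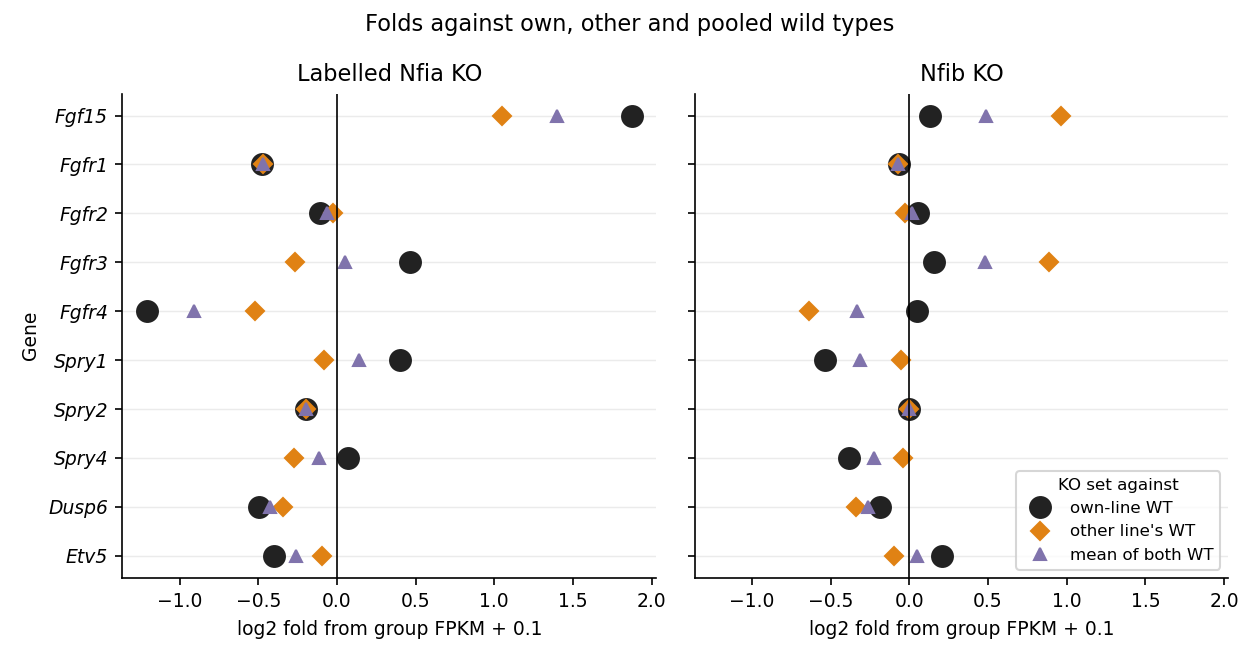
Log2 folds computed from group averages of FPKM + 0.1 for each knockout group against its own line's wild types (black circles), the other line's (orange diamonds) and the mean of both (purple triangles), without errors. Fgfr1 stays at -0.47 in the left panel whichever wild types are used, while Fgf15 spans 1.05 to 1.87 and Fgfr3 changes sign.

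Other FGF pathway genes were described by lists. Of 17 other secreted FGF ligand genes 5 were tested in each line, and 12 had a p of 1 in the authors' deposited table and do not count as tested, among them Fgf8, a patterning ligand of the early rostral forebrain, listed at 0 in all groups. Fgf9, a ligand made by neurons and glia, averaged 1.01 FPKM in the group labelled Nfia knockout and 0.456 FPKM in its wild types, the only tested ligand of this list that was called (log2 fold 1.13, q = 0.00689 by the authors' deposited table). Against the Nfib-line wild types it came to 0.60, and in Nfib knockouts the authors' deposited table gives it -0.027 (q = 0.998). Fgf9 reached 1 FPKM only in the group labelled Nfia knockout, and with a pseudocount of 1 FPKM its Nfia-line fold was 0.46. Over all tested genes of the Nfia line 3.79% were called, 2.69% higher. Fgf18, a ligand of cortical neurons, stood at 2.87 FPKM in Nfib knockouts and 1.61 FPKM in their wild types, which did not pass (log2 fold 0.86, q = 0.157 by the authors' deposited table). Against the Nfia-line wild types, at 3.45 FPKM, the sign turned, with a log2 fold of -0.26. The median log2 fold of the tested ligands was 0.23 for the Nfia line and 0.32 for the Nfib line. Among the 4 intracellular FGF homologous factors, which bind sodium channels and not FGF receptors, none was called in either line. Their smallest p in the Nfia line was that of Fgf12, which was 0.45 as a log2 fold and 0.123 as a q in the authors' deposited table.

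Heparan sulfate and co-receptor genes gave 2 higher and none lower of 19 tested in Nfib knockouts, and none called of 20 tested in the group labelled Nfia knockout, in the authors' deposited table. Over all tested genes 2.13% were higher and 3.26% lower in Nfib knockouts, and 3.79% were called in the group labelled Nfia knockout, so the count of the Nfia line is near its share. Sulf1, which encodes an extracellular enzyme that trims sulfate groups from heparan sulfate, averaged 7.02 FPKM in Nfib knockouts and 2.96 FPKM in their wild types (log2 fold 1.26, q = 0.00207 by the authors' deposited table). Gpc4, a glypican gene of neural progenitors, averaged 25.7 FPKM in Nfib knockouts and 17.4 FPKM in their wild types (log2 fold 0.58, q = 0.0106 by the authors' deposited table). Against the Nfia-line wild types these folds came to 0.81 for Sulf1 and 0.38 for Gpc4. The difference in log2 fold between the lines, Nfia minus Nfib, passed the adjusted threshold for Gpc4 (-0.84) and not for Sulf1 (-1.002). Gpc4 is X-linked, and the uneven Xist levels given above apply to it, so the part of sex was not tested.

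The adaptors and kinases from the receptor to ERK had no called gene of 23 tested in either line, where the shares of called genes among all tested were 3.79% (Nfia) and 5.39% (Nfib), so that none of 23 is near the share over all genes. They had median log2 folds of -0.075 for the Nfia line and 0.081 for the Nfib line. The smallest p among them was that of Cbl, a ubiquitin ligase of activated receptors, at 12.9 FPKM in Nfib knockouts and 9.51 FPKM in their wild types (log2 fold 0.45, q = 0.0681 by the authors' deposited table). Against the Nfia-line wild types, at 14.0 FPKM, its sign turned to a log2 fold of -0.13. Other feedback and ERK target genes had no called gene of 19 tested in either line, again near these shares, with medians of 0.039 for the Nfia line and -0.11 for the Nfib line. The smallest p of this list in the Nfia line was that of Etv1, another ETS factor gene, at 11.3 FPKM in the group labelled Nfia knockout and 8.71 FPKM in its wild types (log2 fold 0.36, q = 0.217 by the authors' deposited table). Among Nfib knockouts it was that of Ccnd1, the gene of the cell cycle protein cyclin D1, at 17.8 FPKM in Nfib knockouts and 13.2 FPKM in their wild types (log2 fold 0.45, q = 0.0582 by the authors' deposited table). Etv4, a close relative of Etv5, averaged 1.67 FPKM in the group labelled Nfia knockout and 2.49 FPKM in its wild types, and 1.90 FPKM in Nfib knockouts and 3.20 FPKM in theirs. The authors' deposited table gives it log2 folds of -0.59 (q = 0.234) in the Nfia line and -0.74 (q = 0.0838) in the Nfib line, below 0 in both without passing. Dusp5, a nuclear ERK phosphatase gene, averaged 0.727 FPKM in the group labelled Nfia knockout and 0.315 FPKM in its wild types (log2 fold 1.19, q = 0.224 by the authors' deposited table).

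**Figure D5:**
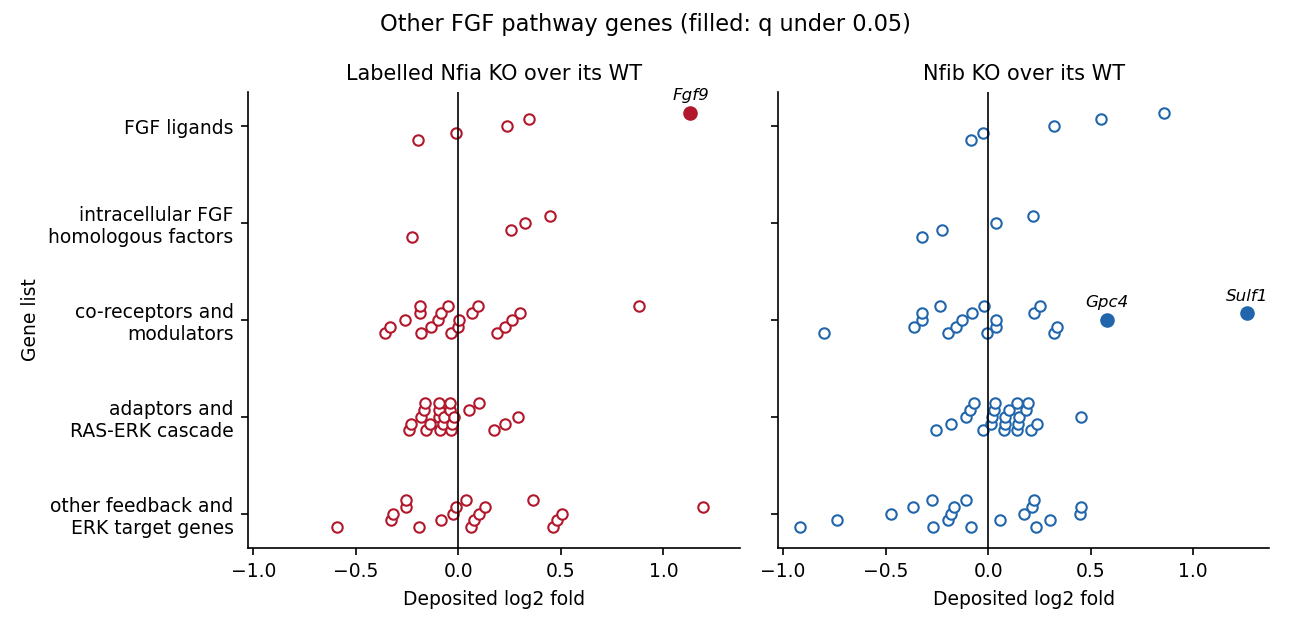
Log2 folds of the other FGF pathway genes in the authors' deposited table, 1 point per tested gene, by list (rows) and line (panels), with filled points where q was under 0.05. The filled points are Fgf9 (1.13) in the Nfia line and Sulf1 (1.26) and Gpc4 (0.58) in the Nfib line; the RAS-ERK cascade has no filled point, and its largest absolute fold is that of Cbl (0.45) in the Nfib line.

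Likeness to Fgf15 and Fgfr3 was measured as the distance between log2(FPKM + 0.1) profiles over the 4 group averages, each centred on its own mean, among 12566 other genes at 1 FPKM or more in at least 1 group. Among the genes nearest to Fgf15 were Cpne6 (0.43), Dppa5a (0.46), Chchd10 (0.46) and Gda (0.47). Cpne6, for example, averaged 6.50 FPKM in the group labelled Nfia knockout and 2.65 FPKM in its wild types, and 4.22 FPKM in Nfib knockouts and 3.99 FPKM in theirs. Nearest to Fgfr3 were Rbm20 (0.13), Stom (0.13), Plvap (0.14), P4ha3 (0.16) and Sap25 (0.17). With 4 averages per gene many profiles lie close together, and these distances describe the averages only.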

How the data were processed

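Per the labels' protocols, RNA was isolated with Trizol before TruSeq RNA library preparation. The submitters' processing notes name the build mm9 and, as tools, Cuffdiff 2.1.1, Cufflinks, TopHat2 2.0.10 and CASAVA 1.8.2. Strand handling is not given in the sources used here. Per the file headers, the authors averaged FPKM (weighted) within each group and deposited log2 folds, p-values and q-values for each line. Rows with a p under 1 count as tested. The deposited q lies within 7.32e-05 of Benjamini-Hochberg values over those rows. Fold cells that held spreadsheet errors or were empty, 1354 in the Nfia and 1378 in the Nfib comparison, were read as missing. A listed 0 need not mean no transcript, since Eef1a1, which every cell uses, has a 0 for the group labelled Nfia knockout. The groups came from the sample titles.

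Computed here, with Python 3.11.15 (scipy 1.17.1, pandas 2.3.3, numpy 2.4.6; figures by matplotlib 3.10.9), were folds from FPKM + 0.1, counts, sums, and the difference of the folds. Its errors were kept at or above a running median over 501 genes. The test was also run on folds simulated with those median errors, which cannot check whether the deposited p-values give sound errors. The 10 genes and the lists were chosen with earlier results of these data known. Named from each list were called genes, at most 4 per comparison, or else those with the smallest p; some of these, and a gene of the likeness comparison, are not reported here. Alternatives were thresholds, filters, pseudocounts, error floors and wild types.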

Additional observations from a re-analysis of the deposited data

How the results depend on the processing

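No paired analysis was possible because the columns are group averages and carry no replicate numbers, and for the same reason no library could be left out. Of 520 genes called in the group labelled Nfia knockout, 320 passed q 0.01, 167 also changed at least 2-fold and 0 passed Bonferroni adjustment. Of its 4 called members these left 2, 2 and 0, Fgf15 and Fgfr4 being the 2 in both cases. In Nfib knockouts the 740 called genes came to 437, 271 and 0, and the members stayed at 0 in each. Bonferroni adjustment cannot pass any gene here, since the smallest deposited p is 5e-05. A filter at 1 FPKM in either group kept all 4 members, but Fgf15 and Fgfr4 passed it through the group where each was high, so for these 2 it is no check. The difference between the lines was called for 512 genes, and for 299 at an adjusted p of 0.01. Without the floor on the errors 2 members passed, Etv5 and Fgfr4, in place of 0. With a pseudocount of 1 FPKM, 1 member, Fgfr3, was at least 1.5-fold apart between the wild types, in place of 3. Of 20 member folds, 14 moved by more than their error against the other line's wild types and 8 against both wild types pooled. With a pseudocount of 1, 2 moved (Fgf15 at 0.86 and Fgfr4 at -0.57, both in the Nfia line), and with 0.1 none did. No called fold changed sign, and none could, since each called knockout average was the highest or lowest of the 4 groups.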
